A study of Drosophila melanogaster with 6 samples.

Results

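The Dpr and DIP proteins are 2 families of neuronal cell surface proteins of the immunoglobulin superfamily, and their RNAs were followed here in the brains of male *Drosophila melanogaster*. Members were all rows of both families in the deposited table, found by gene symbol. They were 66 of 28071 transcripts and 32 of 13453 genes, with 44 transcripts of the 21 *dpr* genes and 22 transcripts of the 11 *DIP* genes. The families were selected on measured values, since the 2 transcripts of *dpr15* and the transcript of *dpr21* differed between SPG-GAL4/UAS-TraF males and controls in earlier work on these libraries. The values of these 3 transcripts in contrasts with SPG-GAL4/UAS-TraF are therefore given as a description, with no test, and counts of calls in those contrasts are over the other 57 tested transcripts, the other 30 gene sums and, for transcript usage, the other 20 genes.

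Poly-A RNA of whole dissected brains with the blood-brain barrier (BBB) attached was sequenced from 3 genotypes with 2 libraries each. In SPG-GAL4/UAS-TraF males the SPG-GAL4 driver, made with regulatory sequence of *moody*, expressed TraF, the female form of the splicing regulator Transformer, in subperineurial glia, the BBB cells joined by septate junctions. The 2 control genotypes were +/SPG-GAL4, with the driver alone, and +/TraF, with the transgene alone. All males were in a w1118 background and 4 to 5 days old, and each library pooled at least 450 brains. Driver and transgene both lie on chromosome 3, where *dpr15* also lies, so the pair of these chromosomes differed between the genotypes, and its part and that of TraF cannot be told apart.

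Dpr proteins (named for a defective proboscis extension response) and DIPs (Dpr-interacting proteins) bind each other across cell contacts, each DIP with its own set of Dprs, and different neurons carry different combinations. The pairs are known for matching synaptic partners, for example of photoreceptors and their targets in the optic lobe and of motor neurons and muscles, and for neuron survival. A change of splicing can alter the protein made, or only the untranslated ends of the RNA, and the annotation was used to tell these apart. Coordinates are those of BDGP6.54. No nucleotide sequence was read, since the reference used here held gene models only.

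The deposited values are estimated counts per transcript. They summed to between 32839081 and 37608924 per library, and Dpr and DIP transcripts took between 0.356% and 0.419% of them. Normalized counts below are these counts scaled to the mean effective library, separately for transcripts and for gene sums. Of the 66 transcripts, 60 passed edgeR's filter on low counts, 4 had 0 counts in all 6 libraries (*DIP-beta-RE*, *DIP-zeta-RA*, *dpr11-RB* and *dpr3-RC*), and *dpr10-RB* and *dpr6-RA* had too few counts to be tested. All 32 gene sums passed. Marker genes of neurons (summed level 5390 to 5627 TPM, a level corrected for transcript length and depth, in SPG-GAL4/UAS-TraF and 4488 to 6639 in controls) and of glia (9176 to 9200 TPM, against 7373 to 8601) were abundant. The part of the higher glial level in SPG-GAL4/UAS-TraF in the results below was not tested. Of 6 glial genes 4 had a positive log2 fold change against both controls, with a median of 0.16. Retina markers summed to 462 to 586 TPM in SPG-GAL4/UAS-TraF and 510 to 615 in controls. Of 12 retina genes 1 had a positive log2 fold change, with a median of -0.32, 1 was lower at an unadjusted p below 0.05 and 0 passed the edgeR test, and the part of the retina in the results was not tested. Fat body markers summed to 247 to 254 TPM in SPG-GAL4/UAS-TraF and 215 to 258 in controls, with 1 of 5 genes below 1 TPM in every library, *Fbp1*. Muscle markers summed to 8.07 to 11.4 TPM in SPG-GAL4/UAS-TraF and 6.13 to 11.3 in controls, with 2 of 6 genes below 1 TPM, *Act88F* and *TpnC4*. The 1 row of *tra* in the table used here, *tra-RB*, had 539 and 558 normalized counts in SPG-GAL4/UAS-TraF, 617 and 578 in +/SPG-GAL4 and 544 and 508 in +/TraF, and the female transcript was not analysed here.

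The 2 libraries of +/SPG-GAL4 differed more from each other than those of the other genotypes, with a chi-square per degree of freedom over transcripts of 18.0 in SPG-GAL4/UAS-TraF, 62.5 in +/SPG-GAL4 and 22.0 in +/TraF. Of the 32 Dpr and DIP gene sums, 30 were higher in +/SPG-GAL4 replicate 1 than in replicate 2, with a median log2 difference of 0.31. That median was 0.06 in SPG-GAL4/UAS-TraF and 0.11 in +/TraF. Counts of calls that change without either of these libraries are given with and without them. In a comparison with +/SPG-GAL4 alone, such a fit has no replicate of that genotype. Its spread then comes from the other genotypes, and its calls describe the library that was kept. A fit without 1 SPG-GAL4/UAS-TraF library likewise has no replicate of that genotype. Calls it gives, such as that of *dpr10* below, describe the SPG-GAL4/UAS-TraF library that was kept. The labels name the libraries of a genotype as biological replicates.

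*dpr15* encodes a Dpr that binds DIP-gamma. In SPG-GAL4/UAS-TraF males *dpr15-RA* took most of the gene's RNA, and in both control genotypes *dpr15-RB* did, while the sum of both was similar in all 3. *dpr15-RA* (FBtr0082549) had 2411 and 2236 normalized counts in SPG-GAL4/UAS-TraF, 727 and 654 in +/SPG-GAL4, and 475 and 632 in +/TraF. *dpr15-RB* (FBtr0339647) had 346 and 302 in SPG-GAL4/UAS-TraF, 2296 and 1933 in +/SPG-GAL4, and 2108 and 1764 in +/TraF. Both SPG-GAL4/UAS-TraF libraries lay outside the 4 control libraries for each transcript, *dpr15-RA* above and *dpr15-RB* below. The log2 fold change against both controls was 1.90 for *dpr15-RA* (SE 0.16) and -2.64 for *dpr15-RB* (SE 0.15). These differences chose the gene and carry no p here.

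**Figure D1:**
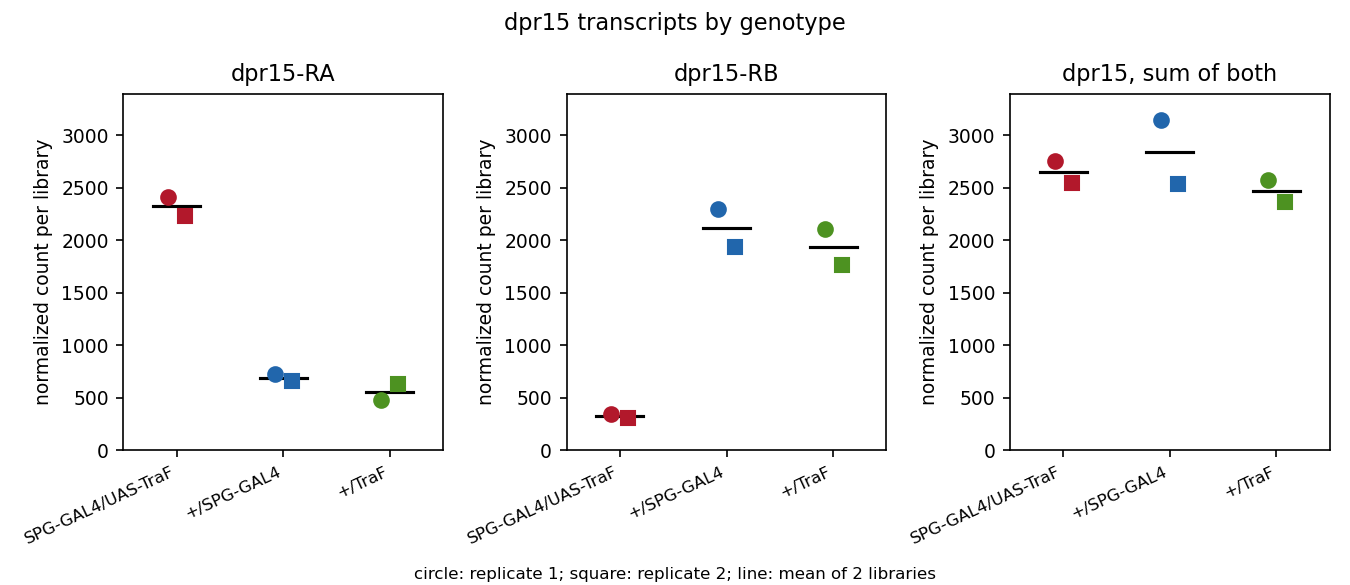
Normalized counts of *dpr15-RA*, *dpr15-RB* and their sum (y axis, counts scaled to the mean library) in the 3 genotypes (x axis). Points are the 2 libraries of each genotype and lines their means. *dpr15-RA* is at 2236 and 2411 in SPG-GAL4/UAS-TraF and at 727 or less in controls, *dpr15-RB* is at 302 and 346 against 1764 or more, and the sums overlap.

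As a share of the counts of the gene, *dpr15-RA* made up 87.4% (95% Wilson interval 86.2% to 88.6%) and 88.1% (86.8% to 89.3%) in SPG-GAL4/UAS-TraF. The share was 24.1% (22.5% to 25.7%) and 25.3% (23.7% to 27.0%) in +/SPG-GAL4 and 18.4% (16.92% to 19.96%) and 26.4% (24.7% to 28.2%) in +/TraF. These intervals cover counting error only, not the error of dividing reads between nearly identical transcripts. Within each genotype the libraries were close, apart from +/TraF, where the 2 intervals did not overlap. Between the controls, a comparison that does not use the SPG-GAL4/UAS-TraF libraries, the transcript usage of *dpr15* did not pass the test (diffSpliceDGE of edgeR, adjusted p = 0.924).

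The gene sum of *dpr15* was 2758 and 2545 normalized counts in SPG-GAL4/UAS-TraF, 3146 and 2539 in +/SPG-GAL4 and 2572 and 2362 in +/TraF. The 3 genotypes overlapped. The log2 fold change of the sum was -0.00 (SE 0.11), and 0.10 (SE 0.06) without +/SPG-GAL4 replicate 1. Leaving out that library gave 2.00 (SE 0.15) for *dpr15-RA* and -2.56 (SE 0.12) for *dpr15-RB*.

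*dpr15* (FBgn0037993) lies on the minus strand of chromosome arm 3R (3R:12138833-12158595). Both transcripts have 7 exons and the same annotated start and end. They differ by 16 nt at the 5′ end of exon 2 (3R:12156606-12156621), which *dpr15-RA* keeps and *dpr15-RB* lacks, so exon 2 has 513 nt in *dpr15-RA* and 497 nt in *dpr15-RB*. The stretch is in the 5′ UTR, 436 nt before the start codon. The coding sequence of 1986 nt is identical, and the 2 transcripts encode the same protein. Estimated counts of the 2 rows thus rest on reads over this stretch or its junctions, and the gene sum does not.

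**Figure D2:**
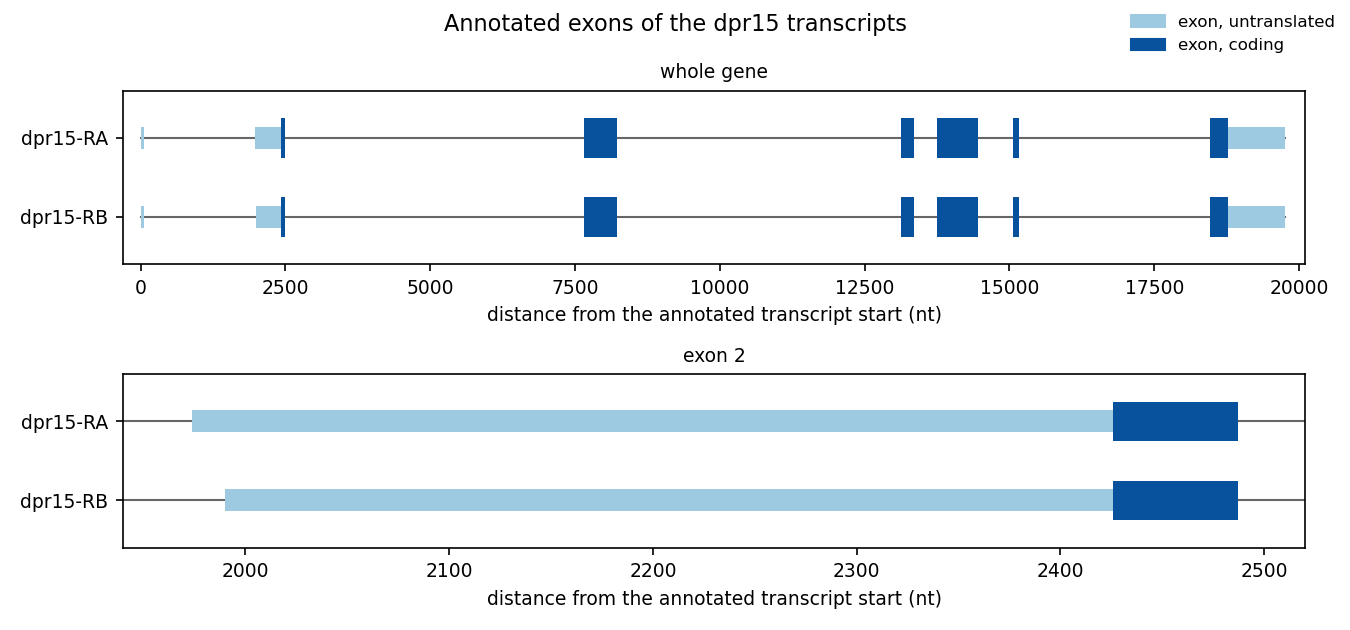
Exons of *dpr15-RA* and *dpr15-RB* by distance from the annotated transcript start (x axis, nt), for the whole gene (top) and for exon 2 (bottom). Light boxes are untranslated and dark boxes coding. The only difference is the 5′ end of exon 2, which is 16 nt longer in *dpr15-RA*.

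The size of the *dpr15* change can be set beside all other genes, again as a description. Among 4929 genes with at least 2 tested transcripts and a mean of at least 50 counts, the largest change in the share of a transcript was 64.2 percentage points in *dpr15*, rank 4 of all, and the median gene changed by 2.62 points. Between the controls the *dpr15* shares differed by 2.29 points. In 4298 genes the same transcript was the most abundant in all 4 control libraries, and in 16 of them (0.372%) both SPG-GAL4/UAS-TraF libraries had another one. Of the 20 Dpr and DIP genes in that set, the 1 that switched was *dpr15*, on which the families were selected, so this count is no test. The other Dpr and DIP genes with at least 2 tested transcripts changed by a median of 1.58 points, the highest being *DIP-eta* with 8.97 points.

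Across both families, 0 of the other 57 transcripts passed the threshold of an adjusted p below 0.1 in SPG-GAL4/UAS-TraF against both controls (edgeR, 0.0141% of all transcripts tested). At an unadjusted p below 0.05 there was 1, *dpr5-RB*, which was lower (5.32% of all in either direction), and DESeq2 called 0 (1.25% of all). Of the other 30 gene sums, 0 passed in edgeR (0% of all genes), 0 were below an unadjusted p of 0.05 (4.68% of all) and DESeq2 called 0 (0.254% of all). Transcript usage passed in 0 of the other 20 genes (1.31% of all). Both SPG-GAL4/UAS-TraF libraries lay above all 4 controls for 4 of 57 transcripts (6.5% of all) and below for 3 (8.38% of all), and above for 1 of 30 gene sums, *DIP-lambda* (5.58% of all), and below for 0 (8.15% of all). The median log2 fold change was 0.03 over the 60 transcripts and -0.02 over all 21208, and 0.02 over the 32 gene sums and -0.01 over all 9777. Without +/SPG-GAL4 replicate 1, 1 of the 30 gene sums passed, *dpr13*, beside 240 of 9763 genes in all. Without SPG-GAL4/UAS-TraF replicate 1, usage passed in *dpr10*, beside 143 of 5349 genes in all.

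**Figure D3:**
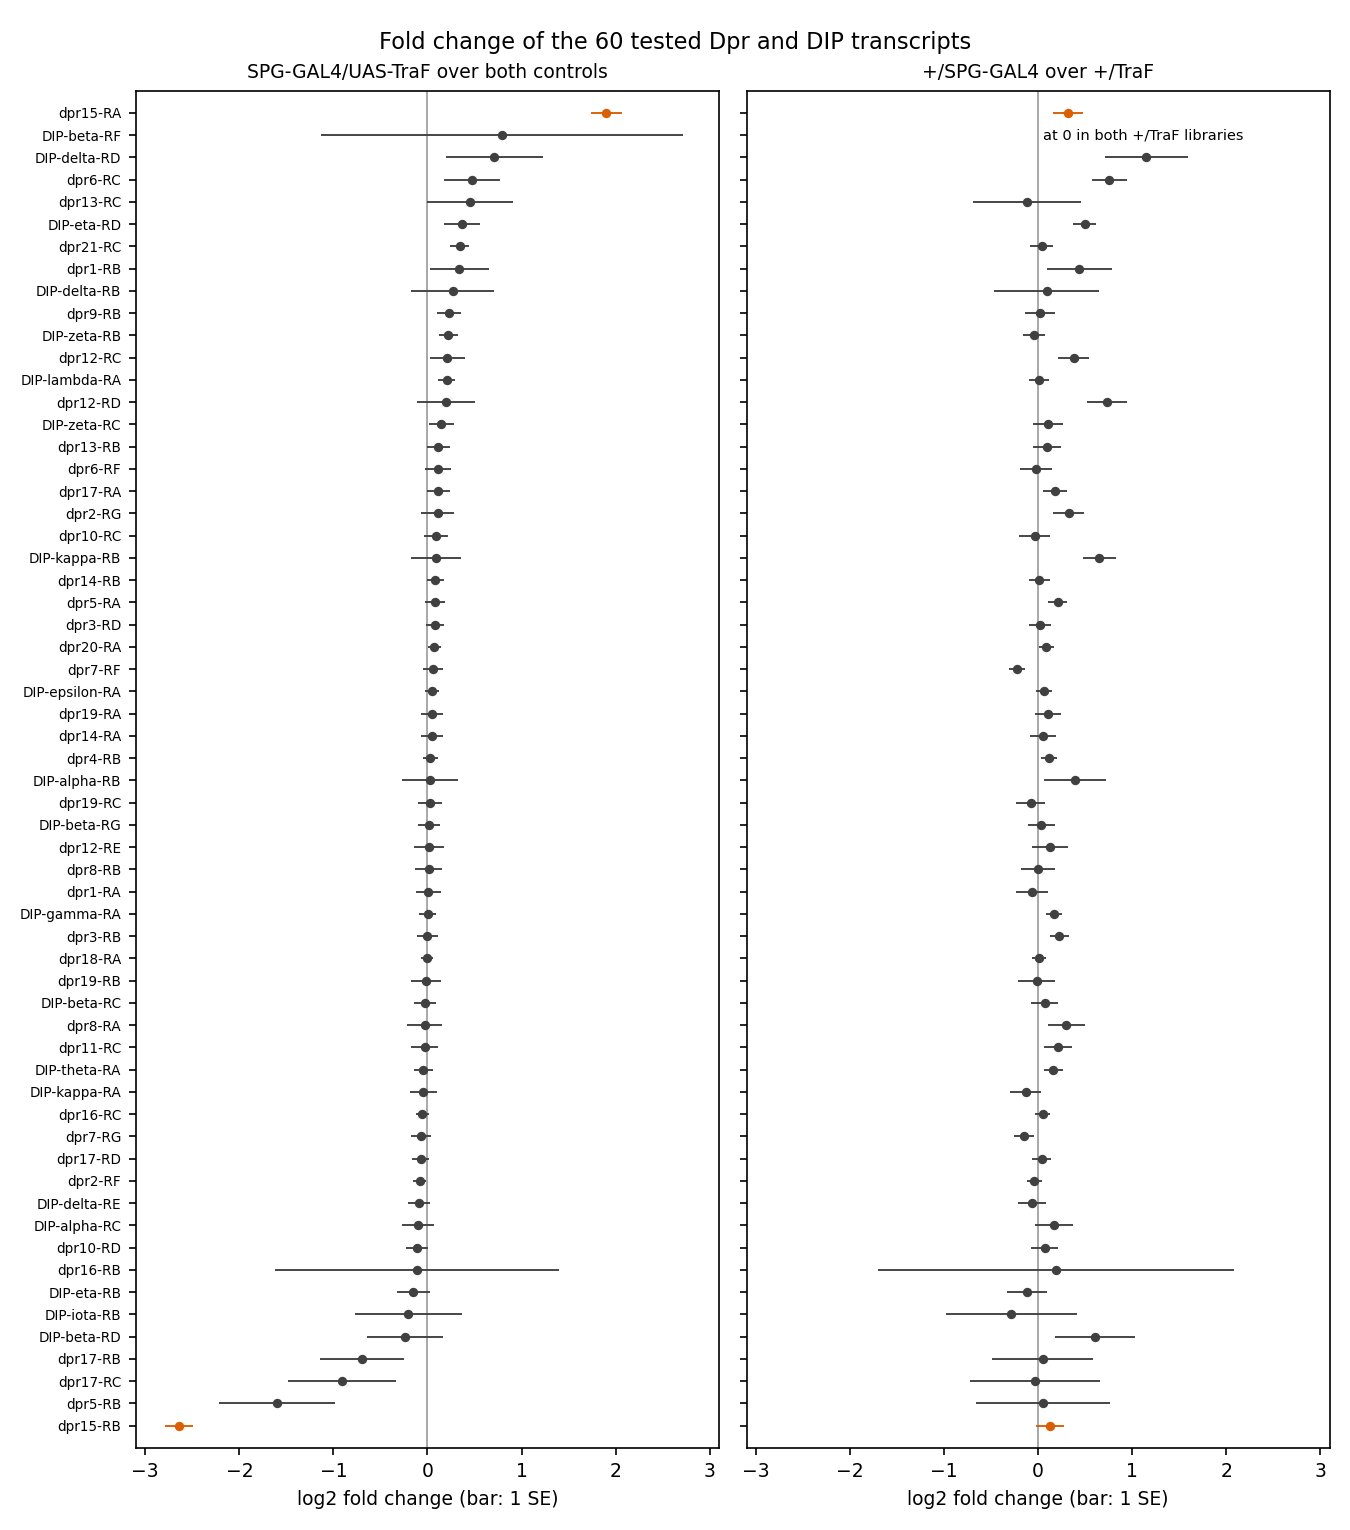
Log2 fold change (x axis, point) with 1 SE (bar) of the 60 tested Dpr and DIP transcripts (y axis), in SPG-GAL4/UAS-TraF over both controls (left) and +/SPG-GAL4 over +/TraF (right). *dpr15* rows are in orange. On the left *dpr15-RA* at 1.90 and *dpr15-RB* at -2.64 lie at the ends of the order, and on the right they are at 0.32 and 0.13.

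The separate comparisons with each control share the SPG-GAL4/UAS-TraF libraries. *dpr15-RA* had a log2 fold change of 1.75 (SE 0.17) against +/SPG-GAL4 and 2.07 (SE 0.17) against +/TraF. *dpr15-RB* had -2.70 (SE 0.16) against +/SPG-GAL4 and -2.58 (SE 0.16) against +/TraF. Against +/SPG-GAL4, 0 of the other 57 transcripts passed in edgeR (0% of all), with 0 at an unadjusted p below 0.05 (5.6% of all) and 0 called by DESeq2 (1.3% of all). Of the other 30 gene sums 0 passed in edgeR (0.0102% of all), with 0 at an unadjusted p below 0.05 (5.84% of all) and 0 called by DESeq2 (0.409% of all). In usage 0 of the other 20 genes passed (1.49% of all). Without +/SPG-GAL4 replicate 2, 10 of these 30 gene sums passed in this comparison, beside 2010 of 10049 genes in all. Without replicate 1 there was 1 gene sum, *dpr9*, beside 318 of 10370, and 1 gene in usage, *dpr16*, beside 265 of 5358.

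Against +/TraF, 0 of the other 57 transcripts passed in edgeR (0.0613% of all). At an unadjusted p below 0.05 there were 7, each of them higher (7.88% of all in either direction). DESeq2 called 3, *DIP-beta-RF*, *DIP-eta-RD* and *dpr6-RC* (2.97% of all). *DIP-beta-RF* is among both the 7 and the 3. It had 0 counts in both +/TraF libraries and passed the filter on low counts only through libraries with the driver. Of the other 30 gene sums 0 passed in edgeR (0.102% of all), with 0 at an unadjusted p below 0.05 (7.14% of all) and 0 called by DESeq2 (0.425% of all). In usage 1 of the other 20 genes passed, *DIP-beta* (5.19% of all), a call lost when transcripts below 10 counts in any library were left out. *DIP-eta* passed too without +/SPG-GAL4 replicate 1, beside 566 of 5358 genes, and without replicate 2, beside 564 of 5313.

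*DIP-gamma*, the binding partner of *dpr15*, and the other Dprs that bind it, *dpr11*, *dpr16* and *dpr17*, lie on 3R as *dpr15* does. *DIP-gamma* and *dpr11* are known from the pairing of R7 photoreceptors with their amacrine target cells. The single transcript of *DIP-gamma*, *DIP-gamma-RA* (3R:28925004-28970372), had 3717 and 3860 normalized counts in SPG-GAL4/UAS-TraF, 4103 and 3897 in +/SPG-GAL4 and 3717 and 3405 in +/TraF. SPG-GAL4/UAS-TraF lay within the range of the controls, and the log2 fold change was 0.00 (SE 0.09, edgeR adjusted p = 0.999).

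*dpr11-RC* (3R:6529169-6593330) had 5813 and 5751 normalized counts in SPG-GAL4/UAS-TraF, 7253 and 5417 in +/SPG-GAL4 and 5645 and 5296 in +/TraF. Its highest library was +/SPG-GAL4 replicate 1. The log2 fold change of -0.03 (SE 0.14) had the opposite sign, 0.10 (SE 0.05), without that library. *dpr16-RC* (3R:5150908-5170121) had 1415 and 1443 in SPG-GAL4/UAS-TraF, 1539 and 1476 in +/SPG-GAL4 and 1466 and 1452 in +/TraF. Both SPG-GAL4/UAS-TraF libraries were the lowest, by a log2 fold change of -0.05 (SE 0.07), which did not pass the test (edgeR adjusted p = 0.999).

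*dpr17* is the neighbour of *dpr15* among the families (3R:12094876-12111420). *dpr17-RA* had 2422 and 2291 normalized counts in SPG-GAL4/UAS-TraF, 2580 and 2052 in +/SPG-GAL4 and 1985 and 2099 in +/TraF, a log2 fold change of 0.11 (SE 0.12). *dpr17-RD*, with another start and the same coding sequence, had 1231 and 1296 in SPG-GAL4/UAS-TraF, 1406 and 1287 in +/SPG-GAL4 and 1393 and 1234 in +/TraF, a log2 fold change of -0.07 (SE 0.09). *dpr17-RB*, a minor row, had 33.6 and 39.0 in SPG-GAL4/UAS-TraF, against 54.5 and 65.1 in +/SPG-GAL4 and 82.1 and 33.7 in +/TraF. Groups overlapped in these 3 rows of *dpr17*, and none passed the test. No transcript of *DIP-gamma*, *dpr11*, *dpr16* or *dpr17* passed in this comparison, and the median log2 fold change of the 5 gene sums of the DIP-gamma group, *dpr15* included, was -0.00.

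The transcript of *dpr21*, a Dpr that binds DIP-beta, was the other one that drew attention. *dpr21-RC* (FBtr0334939, arm 2R) had 3353 and 3323 normalized counts in SPG-GAL4/UAS-TraF, 2408 and 2922 in +/SPG-GAL4 and 2443 and 2750 in +/TraF. Both SPG-GAL4/UAS-TraF libraries were above all controls, by a log2 fold change of 0.34 (SE 0.10), given with no test. *dpr21* ranked 5 in level among the 32 genes over the 4 control libraries, and it has this 1 row in the table.

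The other transcripts above the range of the controls with a mean of at least 50 counts differed by less than 0.4 on the log2 scale and did not pass the test. *DIP-eta-RD*, of a DIP that binds Dprs of the *dpr1* to *dpr5* set, had 915 and 956 normalized counts in SPG-GAL4/UAS-TraF, 869 and 828 in +/SPG-GAL4 and 555 and 650 in +/TraF. Its log2 fold change was 0.37 (SE 0.20, edgeR adjusted p = 0.973), and +/SPG-GAL4 was nearer to SPG-GAL4/UAS-TraF than to +/TraF. *dpr9-RB*, of another Dpr partner of DIP-beta, had 12721 and 12301 in SPG-GAL4/UAS-TraF, 12265 and 9164 in +/SPG-GAL4 and 11258 and 9909 in +/TraF, a log2 fold change of 0.23 (SE 0.13). It is the only row of its gene. Scaled as a gene sum, the same counts were 12727 and 12332 in SPG-GAL4/UAS-TraF and 12761 in +/SPG-GAL4 replicate 1, which overlap.

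*DIP-zeta-RB* had 981 and 859 normalized counts in SPG-GAL4/UAS-TraF, 809 and 745 in +/SPG-GAL4 and 839 and 765 in +/TraF, a log2 fold change of 0.22 (SE 0.10). *DIP-lambda-RA* had 1550 and 1448 in SPG-GAL4/UAS-TraF, 1394 and 1222 in +/SPG-GAL4 and 1349 and 1247 in +/TraF, a log2 fold change of 0.20 (SE 0.09). In both, the lower SPG-GAL4/UAS-TraF library was just above the highest control. edgeR gave adjusted p = 0.976 for *dpr9-RB*, 0.962 for *DIP-zeta-RB* and 0.943 for *DIP-lambda-RA*. Below all controls were also 2 rows of lower counts, *dpr5-RB*, at 19.2 and 9.75 in SPG-GAL4/UAS-TraF and 22.9 to 63.5 in controls, and *dpr17-RC*, at 7.67 and 18.5 in SPG-GAL4/UAS-TraF and 22.8 to 27.0 in controls, and neither passed the test.

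The difference between the controls does not use the SPG-GAL4/UAS-TraF libraries and shows what the pooled contrast averages over. Of the 60 transcripts, 0 passed in +/SPG-GAL4 against +/TraF (edgeR, 0.0377% of all). At an unadjusted p below 0.05 there were 6 higher and 1 lower (4.01% and 3.38% of all), and DESeq2 called 2, *DIP-eta-RD* and *DIP-beta-RF* (2.48% of all). *DIP-beta-RF* had 0 counts in both +/TraF libraries. Of the gene sums 0 passed in edgeR (0.215% of all), 0 were below an unadjusted p of 0.05 (7.71% of all) and DESeq2 called 0 (0.946% of all). The count of gene sums depended on which +/SPG-GAL4 library was kept, and a fit without either has no replicate of that genotype. Without +/SPG-GAL4 replicate 2, 22 of 32 gene sums passed, beside 3856 of 10049 genes in all, and without replicate 1 there were 0, beside 127 of 10370. Of the transcripts, 1 passed without replicate 2, *dpr12-RC*, beside 511 of 22105.

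Transcript usage between the controls passed in 1 of 21 Dpr and DIP genes, *DIP-beta* (diffSpliceDGE of edgeR, adjusted p = 0.00799, 4.66% of all genes). On data simulated for SPG-GAL4/UAS-TraF against both controls, the usage test made more false calls than its threshold allows. It was not simulated for the comparison of the controls. *DIP-beta-RF*, described next, passed the filter on low counts only through the libraries with the driver. *DIP-beta* (X:21422115-21457738) has 5 rows in the table. *DIP-beta-RF* (FBtr0299901) shares its coding sequence with *DIP-beta-RC*, the most abundant row, and lacks 85 nt of the first exon, in the 5′ UTR. Its estimated counts were 95 and 31 in SPG-GAL4/UAS-TraF, 59 and 79 in +/SPG-GAL4, and 0 and 0 in +/TraF. Both genotypes with the driver thus had estimated counts in this row and neither +/TraF library did. As a share of the gene it was 3.19% and 1.13% in SPG-GAL4/UAS-TraF, 2.03% and 2.93% in +/SPG-GAL4, and 0 in +/TraF, where a floor of 3 counts is 0.112% and 0.116% of the gene. Its estimated level was 29.2 and 9.69 times that floor in the 2 SPG-GAL4/UAS-TraF libraries, and 20.6 and 24.3 times in the 2 +/SPG-GAL4 libraries. The floor covers counting error only. *DIP-beta-RF* has no exonic base that *DIP-beta-RC* lacks, and the error of dividing reads between such rows is not in these ratios. Usage of *DIP-beta* passed against +/TraF in SPG-GAL4/UAS-TraF as well (adjusted p = 0.00849), in a comparison that shares the +/TraF libraries.

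The other rows of *DIP-beta* overlapped between genotypes. *DIP-beta-RC* had 1603 and 1688 normalized counts in SPG-GAL4/UAS-TraF, 1939 and 1498 in +/SPG-GAL4 and 1688 and 1586 in +/TraF. *DIP-beta-RG*, whose coding sequence is 63 nt shorter, had 1105 and 893 in SPG-GAL4/UAS-TraF, 1046 and 945 in +/SPG-GAL4 and 1029 and 918 in +/TraF. *DIP-beta-RD* was at 52.7 and 73.1 in SPG-GAL4/UAS-TraF, 114 and 65.1 in +/SPG-GAL4 and 64.5 and 53.6 in +/TraF. The usage call was lost when transcripts below 10 counts in any library were left out, *DIP-beta-RF* among them, and when either +/TraF library was left out. Without +/SPG-GAL4 replicate 1, usage between the controls passed in *DIP-beta*, *DIP-kappa* and *dpr16*, beside 443 of 5358 genes in all.

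Apart from *dpr15* and *dpr21*, 13 of 57 transcripts, *DIP-beta-RF* among them, were higher in all 4 libraries with the driver than in both +/TraF libraries (9.69% of all), and 0 were lower in all 4 (10.3% of all). Of the 30 gene sums, 4 were higher in all 4, those of *dpr3*, *dpr4*, *dpr5* and *DIP-gamma* (9.46% of all), and 0 were lower (11.7% of all). *dpr6-RC*, of a Dpr that binds DIP-alpha, had 576 and 598 normalized counts in SPG-GAL4/UAS-TraF, 611 and 450 in +/SPG-GAL4 and 336 and 292 in +/TraF. *DIP-delta-RD*, of the partner of *dpr12* in the mushroom body, made up 5.90% and 13.1% of its gene in SPG-GAL4/UAS-TraF, 6.51% and 9.16% in +/SPG-GAL4 and 4.19% and 2.68% in +/TraF. *DIP-kappa-RB* made up 25.8% and 24.1% in SPG-GAL4/UAS-TraF, 25.9% and 30.7% in +/SPG-GAL4 and 15.8% and 21.1% in +/TraF. None of these passed in edgeR between the controls, with log2 fold changes of 0.76 (SE 0.19, adjusted p = 0.472) for *dpr6-RC*, 1.15 (SE 0.44, adjusted p = 0.669) for *DIP-delta-RD* and 0.65 (SE 0.17, adjusted p = 0.513) for *DIP-kappa-RB*. These 3 were chosen after their values were seen.

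**Figure D4:**
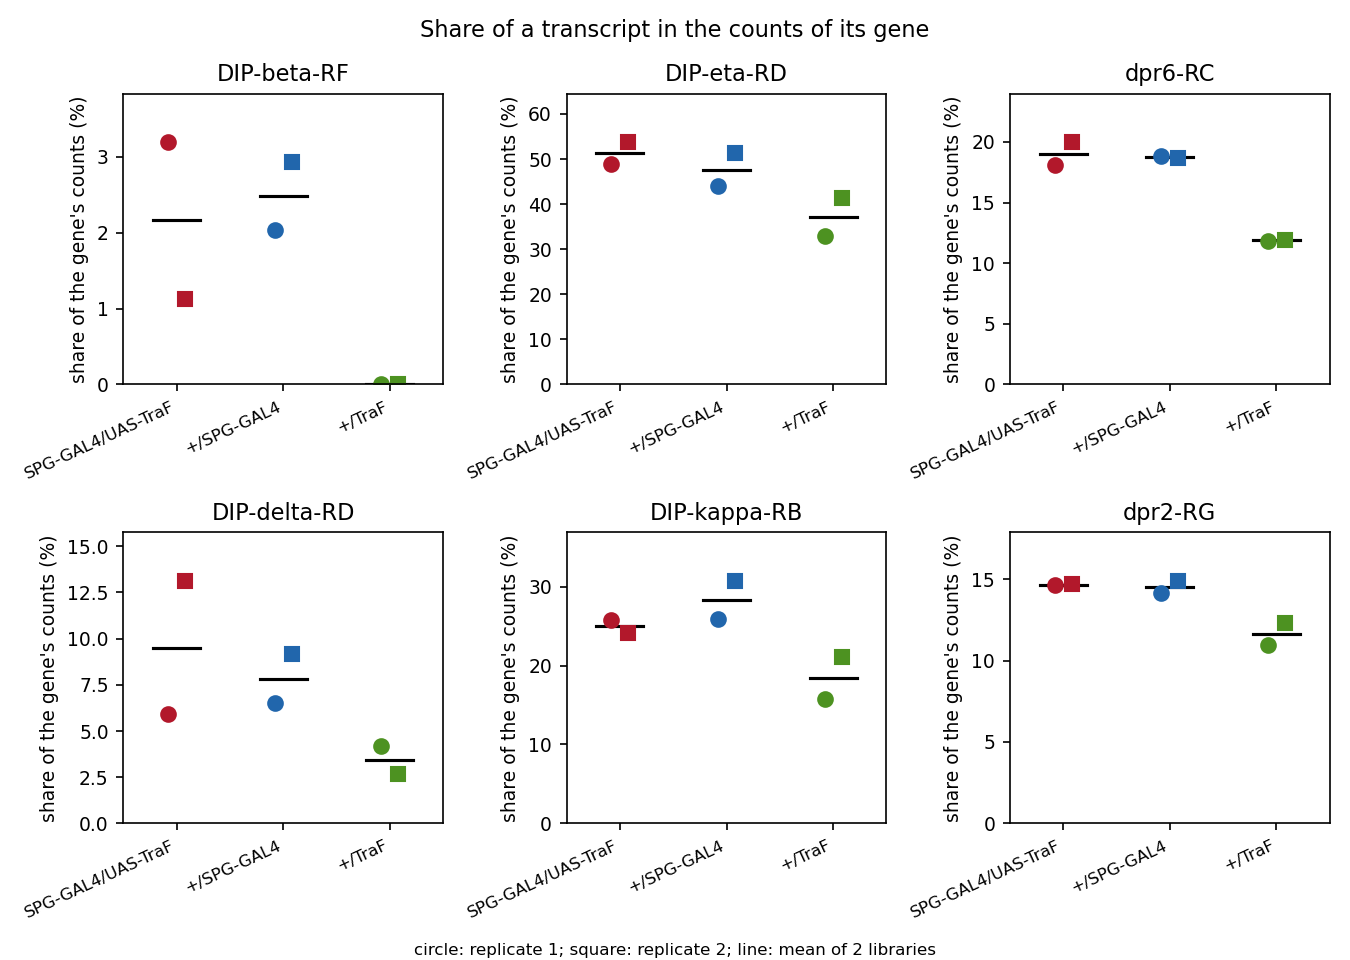
Share of 6 transcripts in the counts of their gene (y axis, %) by genotype (x axis), with a point for each library and a line at the mean. *DIP-beta-RF* is at 0 in both +/TraF libraries, and for *dpr6-RC* the 4 libraries with the driver are at 18.1% or more, against 11.8% and 12.0% in +/TraF.

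In level, Dpr and DIP genes ranged from 0.693 TPM in *DIP-iota* to 369 TPM in *dpr7* as means of the 6 libraries, and 30 of 32 were above the median gene. *dpr7* (340 to 394 TPM) and *dpr12* (196 to 328 TPM) did not overlap, and *dpr21*, *dpr19*, *dpr18* and *dpr9* followed at means of 173, 166, 159 and 141 TPM. *dpr16* (29.8 to 37.6 TPM) was above *DIP-alpha* (9.55 to 15.5 TPM), and *DIP-alpha* above *DIP-iota* (0.522 to 0.819 TPM). The other 28 of 31 neighbours in the order had overlapping ranges. The 21 *dpr* genes had a median of 79.9 TPM and the 11 *DIP* genes 39.8 TPM. *dpr* genes summed to 2418 and 2288 TPM in SPG-GAL4/UAS-TraF, 2665 and 2112 in +/SPG-GAL4 and 2164 and 2012 in +/TraF. *DIP* genes summed to 455 and 430 TPM in SPG-GAL4/UAS-TraF, 530 and 408 in +/SPG-GAL4 and 408 and 374 in +/TraF. In both families SPG-GAL4/UAS-TraF lay between the 2 libraries of +/SPG-GAL4 and above +/TraF. In brain tissue, fewer cells of a type and less RNA per cell cannot be told apart.

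**Figure D5:**
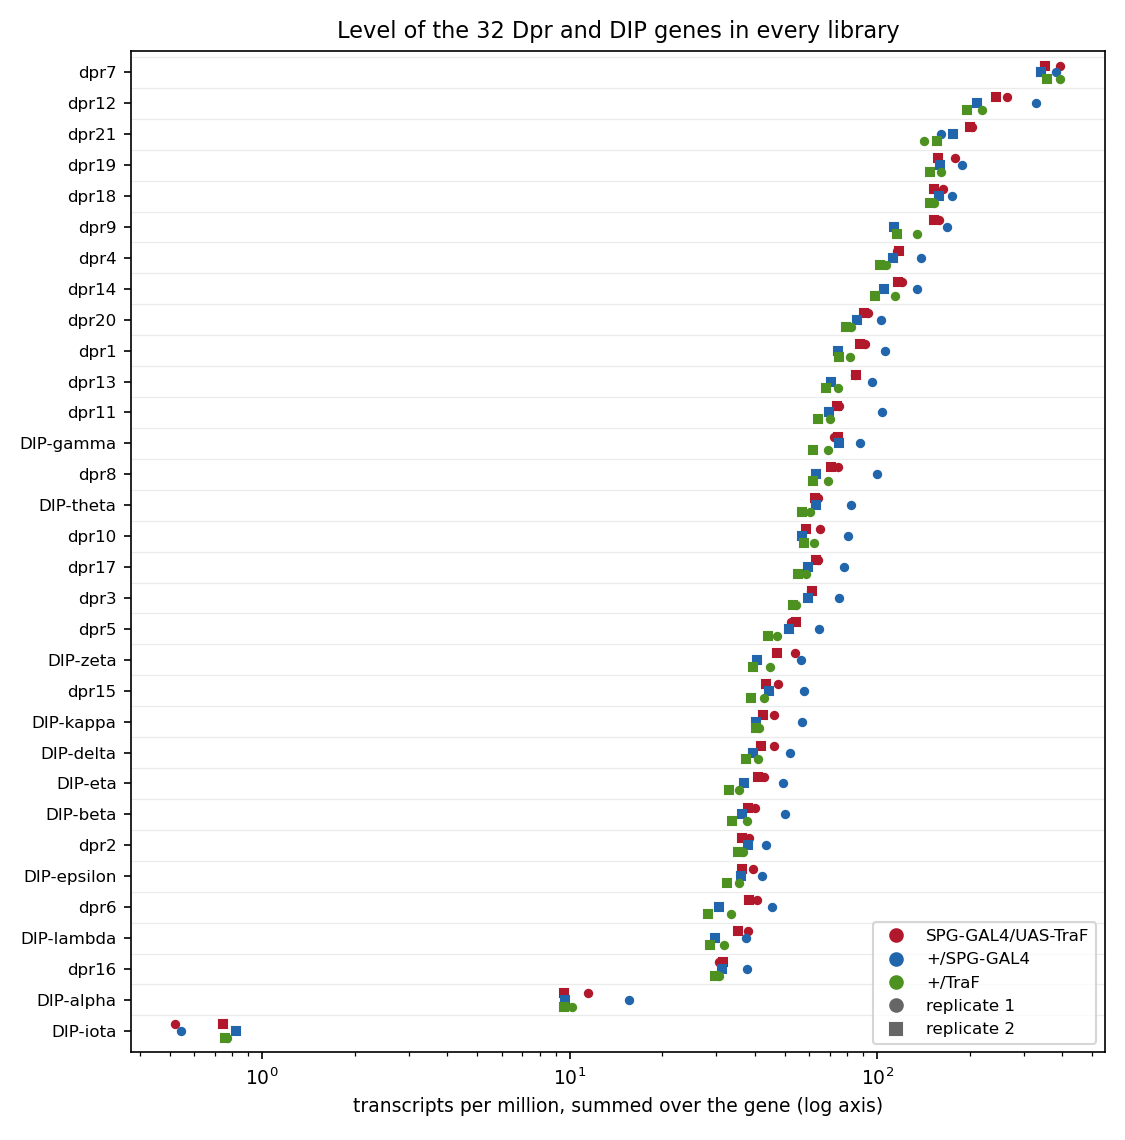
Level of the 32 genes (y axis, ordered by the mean of the 6 libraries) in TPM on a log axis (x axis), with a point for each library coloured by genotype. Most neighbours overlap, and +/SPG-GAL4 replicate 1 is the highest library in 28 of 32 genes.

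Set by binding partner, the summed levels of every group overlapped between SPG-GAL4/UAS-TraF and +/SPG-GAL4, and 3 groups are given here. The DIP-gamma group of 5 genes summed to 290 and 287 TPM in SPG-GAL4/UAS-TraF, 364 and 280 in +/SPG-GAL4 and 271 and 250 in +/TraF. The DIP-beta group of 4 genes, which holds *dpr21*, summed to 477 and 462 TPM in SPG-GAL4/UAS-TraF, 479 and 389 in +/SPG-GAL4 and 384 and 367 in +/TraF. The DIP-alpha group of 3 genes summed to 117 and 107 TPM in SPG-GAL4/UAS-TraF, 141 and 97.2 in +/SPG-GAL4 and 106 and 95.5 in +/TraF.

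Genes of other recognition families were listed as a reference, the beat and side proteins, Dscams, irre cell recognition proteins, teneurins and others. Of their 179 tested transcripts 0 passed in SPG-GAL4/UAS-TraF against both controls (edgeR, 0.0141% of all), with a median log2 fold change of 0.07. There were 7 higher and 3 lower at an unadjusted p below 0.05. Over all 21208 transcripts 365 were higher and 764 lower at that threshold (5.32% of all). Of their 43 gene sums 0 passed as well (0% of all), with 1 higher and 1 lower at an unadjusted p below 0.05 and a median of 0.05. Over all 9777 gene sums 87 were higher and 371 lower (4.68% of all).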

How the data were processed

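Reads were quantified by the authors with Kallisto, and the values they deposited are estimated counts per transcript, whole numbers without normalization. The Kallisto version and transcriptome release are not given in the sources used here. Kallisto divides reads that match several transcripts by estimated abundance, and the error of that step is not in the counts. Names and gene models came from Ensembl release 115 (BDGP6.54), which held 28061 of the 28071 identifiers. TPM was computed from the counts and annotated lengths.

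Transcripts and gene sums were tested across the whole table by quasi-likelihood in edgeR 4.0.16, R 4.3.3 (TMM, its filter on low counts, prior count 0.125, Benjamini-Hochberg adjustment, adjusted p below 0.1). SPG-GAL4/UAS-TraF was set against both controls, and each pair of genotypes was compared in 1 fit with 3 genotypes. Transcript usage was tested with diffSpliceDGE over 5109 genes. The steps were tested on simulated data, where false calls exceeded the threshold's share of calls, most in the usage test. The alternatives were size factors by median of ratios, DESeq2 1.42.0, other filters, a replicate block, Simes p-values for usage, removal of the trend with transcript length, and leaving out each library.

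The members, lists and tests were chosen with earlier results of these data known. Named transcripts were those of *dpr15*, *dpr21* and the DIP-gamma group with a mean of at least 50 counts, any past the threshold with the other rows of its gene, and up to 6 in each direction with the largest change outside the range of the controls. Partner groups are background from binding studies.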

Additional observations from a re-analysis of the deposited data

Results flagged for a closer look

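In the 4 control libraries, gene sums of 5 Dpr and DIP genes had 1 library far from the other 3, of 45 member values tested, and chance flags about 1 in 20. In each of the 5 it was +/SPG-GAL4 replicate 1. It had 6507 normalized counts of *dpr4*, against 5356 to 5542 in the other controls, 4396 of *dpr20*, against 3755 to 3841, 4227 of *dpr17*, against 3339 to 3472, and 1643 of *dpr16*, against 1448 to 1471. *DIP-iota* was the low one, with 11.3 against 17.6 to 17.9.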

How the results depend on the processing

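Under the alternatives, counts of calls moved by over 1.5 times in 39 cases and did not in 108, and some log2 fold changes changed sign. The counts below include the rows of *dpr15* and *dpr21*, on which the families were selected. Against both controls and against +/SPG-GAL4, every transcript counted below was one of these rows. The gene sum that DESeq2 called was that of *dpr21*. Without them, DESeq2 called 0 of 57 transcripts and 0 of 30 gene sums in each of these 2 comparisons. Against +/TraF, every transcript that edgeR called was a row of *dpr15*, and every gene sum it called was that of *dpr21*. The usage counts below in each contrast with SPG-GAL4/UAS-TraF include *dpr15*, so they are no test of the families. DESeq2 called 3 Dpr and DIP transcripts and 1 gene sum in SPG-GAL4/UAS-TraF against both controls (280 transcripts and 24 gene sums in all, against 3 and 0 in edgeR), 2 transcripts against +/SPG-GAL4 (289 in all, against 0), 5 against +/TraF (643 in all, against 13) and 2 between the controls (550 in all, against 8). With at least 10 counts in every library, 2 transcripts passed against both controls and 1 against +/SPG-GAL4, and usage passed in 1 gene against +/TraF and 0 between the controls. In 1 fit with 3 genotypes, 2 transcripts and 2 usage genes passed against both controls. With the length trend removed, 2 transcripts passed against both controls and 1 against +/SPG-GAL4, 1 gene sum and 4 usage genes against +/TraF, and 3 usage genes between the controls. The cause was not tested.

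Same-numbered libraries of different genotypes had correlations of their deviations of 0.0019, -0.020 and 0.041. They thus shared no strong shift over all transcripts. With 2 libraries per genotype this cannot tell whether libraries of the same number were prepared together. With the replicate block 1 transcript passed against +/TraF, *dpr15-RB*, and no other count of Dpr and DIP calls moved by over 1.5 times.

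Leaving out 1 library at a time gave, against both controls, 0 to 2 transcripts (0 to 4 in all), 0 to 2 gene sums (0 to 240) and 1 to 2 usage genes (70 to 183). Against +/SPG-GAL4 it gave 0 transcripts (0 in all), 0 to 12 gene sums (0 to 2010) and 1 to 2 usage genes (18 to 395). Against +/TraF it gave 0 to 2 transcripts (0 to 34), 0 to 1 gene sums (3 to 413) and 1 to 3 usage genes (106 to 566), and between the controls 0 to 1 transcripts (0 to 511), 0 to 22 gene sums (6 to 3856) and 0 to 3 usage genes (108 to 497). Log2 fold changes against both controls ranged from 1.81 to 2.00 for *dpr15-RA* and from -2.72 to -2.53 for *dpr15-RB*. Those that changed sign had ranges of -0.056 to 0.095 for the *dpr15* gene sum, -0.079 to 0.099 for *dpr11-RC*, -0.045 to 0.058 for *DIP-gamma-RA* (-0.014 with the length trend removed), -0.12 to 0.18 for *DIP-beta-RG*, -0.078 to 0.063 for *DIP-beta-RC*, -0.48 to 0.057 for *DIP-beta-RD*, and -0.19 to 1.499 for *DIP-beta-RF*. Depth limits the minor rows most, and *DIP-beta-RF* had 95 counts at most.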

Other observations

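Some rows that were lowest in +/TraF end earlier at the 3′ end than other transcripts of their gene. Only transcripts averaging 50 counts or more entered, in pairs whose last exon begins at the same base and ends 100 nt or more apart. Among 8 Dpr and DIP genes with such transcripts, the share of the shorter ones was higher in all 4 libraries with the driver than in both +/TraF libraries in 6 (*DIP-alpha*, *DIP-delta*, *DIP-eta*, *DIP-kappa*, *dpr12* and *dpr2*). It was lower in 0. Over 1696 such comparisons in all genes, it was higher in 35.5% and lower in 2.95%. The median share of the shorter transcripts over all of these comparisons was 41.4% and 43.5% in SPG-GAL4/UAS-TraF, 41.1% and 42.8% in +/SPG-GAL4 and 36.5% and 38.2% in +/TraF. For *DIP-delta* it was 9.23% and 14.8% in SPG-GAL4/UAS-TraF, 8.83% and 11.1% in +/SPG-GAL4 and 5.57% and 5.44% in +/TraF. *dpr14* and *dpr1* overlapped between the groups. These values were looked at after the data were seen.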
